A study of Homo sapiens with 32 samples.

Results

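Polysome loading under PP242 was measured in MDA-MB-231 cells, an established human line from a metastatic triple-negative breast carcinoma. The members are 8 of the 32 RNA-Seq libraries of the series, namely the polysomal (P) and the total (T) mRNA of 4 cultures that had received PP242. Cultures 67 and 83 were kept in normoxia (NPP), and cultures 68 and 84 were kept in 0.5% O2 for 24 hours (HPP). All 4 received PP242, dissolved in DMSO, at 2.5 µM for 3 hours. The line was also grown without PP242 in normoxia (N, cultures 65 and 81) and in hypoxia (H, cultures 66 and 82). Per the study's methods, control cells received the vehicle DMSO in equal amount. MCF10A, an immortalised breast epithelial line that does not form tumours, supplied 8 further libraries with PP242. Each group had 2 biological replicates of 1 line, and the culture numbers come from the sample titles. Cultures 65, 66, 67 and 68 are labelled replicate 1, and cultures 81, 82, 83 and 84 replicate 2. P came from a sucrose gradient and, per the study's text, held light and heavy polysomes from disomes upward.

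The 8 libraries held 31001024 to 39536845 counts, with a median of 33685169, and protein-coding genes took 98.01% to 99.04% of them. The labelled line was checked against its markers, given in CPM, counts scaled to the size of the library with TMM factors. VIM, the mesenchymal intermediate filament, stood at 3741 to 6082 CPM in T, CD44 at 658 to 903 and the receptor kinase AXL at 820 to 1053. The epithelial genes CDH1 and ESRP1 and the hormone receptors ESR1 and PGR reached at most 0.335 CPM in T or P. The basal epithelial genes KRT5, KRT14 and TP63, which mark MCF10A, reached at most 0.585 CPM. SPARC, listed as a marker of the line, was close to absent, at 0.363 to 0.493 CPM in T. Among markers of fibroblasts and macrophages COL1A2, PTPRC and CD14 did not exceed 2.35 CPM, while COL1A1 lay between 8.44 and 14.3 and CD68 between 72.4 and 104.8.

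mTOR complex 1 is the kinase that couples nutrients and growth factors to protein synthesis, and PP242 blocks it together with mTOR complex 2 by competing with ATP. Active mTOR complex 1 phosphorylates the 4E-BP repressors and LARP1 and so keeps cap-dependent initiation open. The mRNAs best known to depend on it carry a 5′ terminal oligopyrimidine (TOP) motif, a C at the cap followed by a run of pyrimidines, and encode the ribosomal proteins and several translation factors. Their protein products build the ribosome itself, so this class links growth signals to the capacity for translation.

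The letters around annotated start sites illustrate the motif. The windows below are from RefSeq promoters on GRCh38.p14, 5′ to 3′ on the gene strand, with 15 bases before the start and 15 from it. Capitals mark the unbroken run of C and T that begins at the start. The 6 TOP mRNAs are shown because most genes whose loading differed between cultures with and without PP242 belonged to this class. The 6 were picked from genes that have a run. RPL11 is shown with both of its annotated starts, of which only the downstream one has it. FTL and KMT2D are shown as genes from the low and the high end of loading without such a run.
RPS12 (chr6:132814554-132814583, + strand): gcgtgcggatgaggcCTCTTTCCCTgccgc
RPS6 (chr9:19380222-19380251, − strand): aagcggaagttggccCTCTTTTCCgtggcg
RPL12 (chr9:127451392-127451421, − strand): ccgcgcgatttccggCCTCTCggctttcgg
EEF1A1 (chr6:73521018-73521047, − strand): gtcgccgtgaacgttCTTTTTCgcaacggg
EEF2 (chr19:3985449-3985478, − strand): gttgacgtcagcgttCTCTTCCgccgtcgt
TPT1 (chr13:45341169-45341198, − strand): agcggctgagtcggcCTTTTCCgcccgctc
RPL11, upstream start (chr1:23691764-23691793, + strand): cgcctcctggcccataaggccctcggccgg
RPL11, downstream start (chr1:23691791-23691820, + strand): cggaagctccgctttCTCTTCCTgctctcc
FTL (chr19:48965294-48965323, + strand): tagccacgtcccctcgcagttcggcggtcc
KMT2D (chr12:49060780-49060809, − strand): gggcgggatccctccgccgctccgctccaa

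A C at the start followed by at least 4 pyrimidines (CNNNN with each N a C or T, gene strand) was present in 47 of the 64 ribosomal protein genes that matched the promoter table, or 73.4%, of 79 in all. Of all tested genes that matched, 806 of 10986 (7.34%) had it, and so had 1404 of all 27305 genes with a promoter entry (5.14%), counting a gene that has it at any of its annotated starts. Annotated starts can differ from the starts used in these cells, and the letters are a description of the annotation.

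Loading was defined as log2 of P over T, so a value of −1 means that a transcript was 2 times scarcer among polysomal than among total mRNA. Libraries were scaled by TMM, which sets loading relative to the typical mRNA. The absolute amount of mRNA on polysomes was not measured, and in bulk samples fewer cells and less RNA per cell cannot be told apart. The edgeR quasi-likelihood test was run on 13510 protein-coding genes over the 16 libraries of the line, and a gene was called at a Benjamini-Hochberg adjusted p under 0.05. The p-values measure the spread between these cultures.

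The first comparison asked which mRNAs were over- or under-represented on polysomes when mTOR was inhibited, with 4 P against 4 T libraries. Loading was higher than that of the typical mRNA for 1334 genes (9.87% of those tested) and lower for 1872 (13.9%), and 4844 genes had an unadjusted p under 0.05. The lower side was the deeper one, with 565 genes at least 2-fold lower and 10 at least 2-fold higher. Nearly as many genes had all 4 P values above all 4 T values (1330 genes, 9.84%) or below them (1749 genes, 12.9%). The split rested on the scaling: with library size alone, which moved the median of all genes from 0.02 to 0.13, 2702 genes were called higher and 1406 lower, so that 65.8% of the calls were higher against 41.6% under TMM. The count fell to 1967 without the P library of HPP culture 68 and to 2075 without the T library of HPP culture 84. The higher side fell the more, to between 620 and 968 genes when each library was left out (620 without the T library of culture 84, 671 without that of culture 67 and 680 without the P library of culture 68), while 1287 to 1661 were lower.

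Transcripts of ferritin, the iron storage complex, of the mitochondrial genome and of ribosomal proteins were among the 10 lowest called genes with a mean of at least 10 CPM. FTL, the ferritin light chain, stood at 1657 and 2097 CPM in T of NPP cultures 67 and 83, and at 1726 and 1944 in HPP cultures 68 and 84. In P its values were 174 and 152 CPM in NPP, and 133 and 135 in HPP. All 4 P values were far below all 4 T values, with loading 12.5 times lower than that of the typical mRNA (log2 −3.65, SE 0.24, edgeR adjusted p 1.71e-07). FTH1, the ferritin heavy chain, lay at 907, 940, 945 and 918 CPM in T and at 142, 123, 82.9 and 91.3 CPM in P, in the order 67, 83, 68 and 84. Its groups did not overlap either, at 8.64 times lower (log2 −3.11, SE 0.20, edgeR adjusted p 1.21e-07). Both carry an iron-responsive element, a hairpin bound by iron regulatory proteins when iron is scarce. Of the 6 mRNAs listed with this element 3 were lower (50.0% against 13.9% of all genes), the third being the iron exporter SLC40A1 (log2 −1.66), which stood under 3 CPM, and 0 were higher. TFRC, the transferrin receptor, had a loading of 0.19 (edgeR adjusted p 0.217). The ferritin mRNAs were also low without PP242, with loading in N and H cultures from −3.36 to −2.51 for FTL, and their difference with PP242 was not called (log2 −0.73 for FTL and −0.57 for FTH1).

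All 13 mitochondrially encoded mRNAs had lower loading (13.9% of all genes did), from −3.63 to −1.56 with a median of −2.79. These transcripts are translated inside mitochondria by their own ribosomes. MT-CO2, a subunit of cytochrome c oxidase, stood at 4787, 6818, 7105 and 6914 CPM in T and at 387, 609, 426 and 643 CPM in P (cultures 67, 83, 68 and 84). The groups were far apart in all 4 cultures, and loading was 12.4 times lower (log2 −3.63, SE 0.23, edgeR adjusted p 1.29e-07). MT-CO3 (−3.55), MT-ND3 (−3.00), MT-ATP8 (−2.95) and MT-ATP6 (−2.90) were also among the 10 lowest genes of that abundance. Together the 13 mRNAs took 4.76%, 5.89%, 5.84% and 5.97% of the T counts of the 4 cultures and 0.566%, 1.04%, 0.595% and 1.05% of the P counts. Loading of the group was as low without PP242, with culture medians of −2.98, −2.41, −2.88 and −3.46 in cultures 65, 81, 66 and 82, and 0 of 13 differed with PP242.

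**Figure D1:**
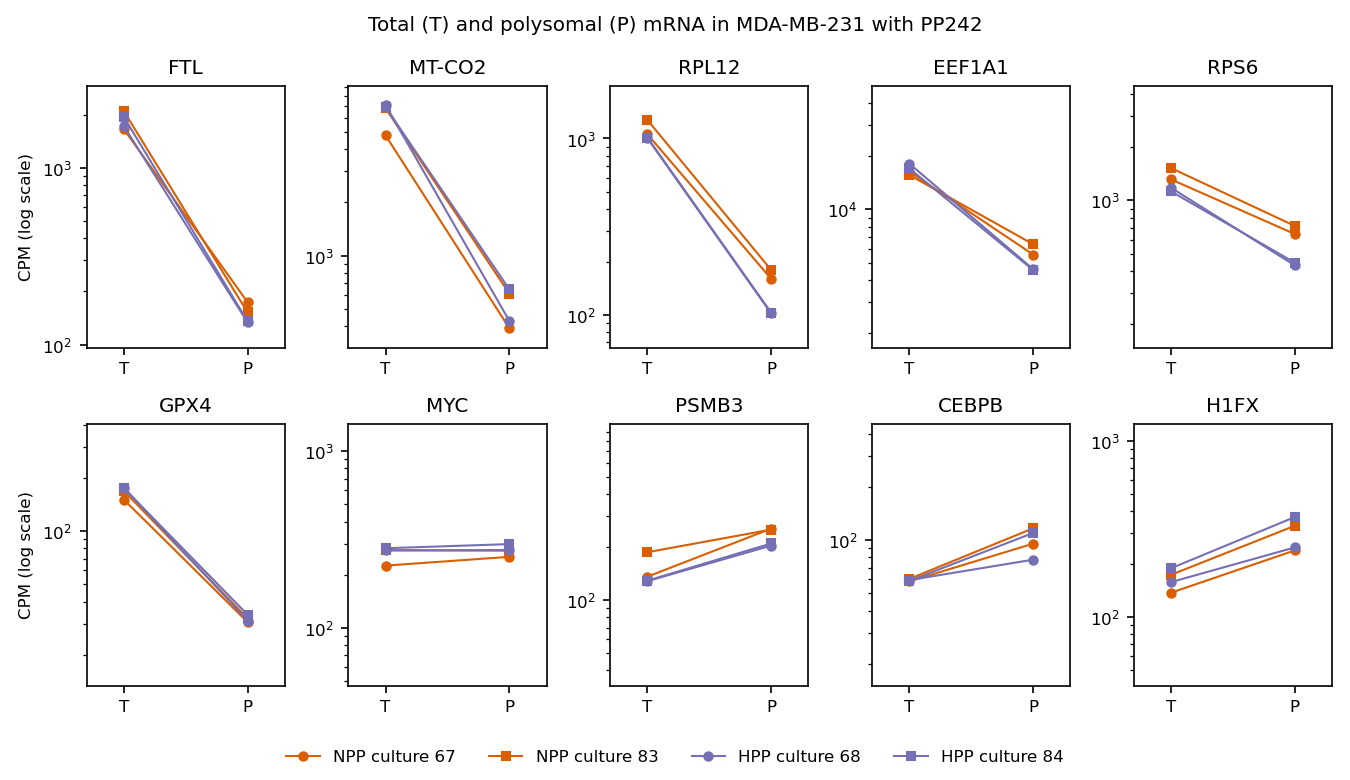
CPM (log axis) of 10 genes in total (T) and polysomal (P) mRNA, with 1 line per PP242 culture (NPP orange, HPP purple; circles cultures 67 and 68, squares cultures 83 and 84). The lines of FTL, MT-CO2, RPL12, EEF1A1, RPS6 and GPX4 fall in all 4 cultures, those of PSMB3, CEBPB and H1FX rise in all 4, and those of MYC stay nearly flat (loading 0.06).

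Ribosomal protein mRNAs were low as a class. Of the 79 tested, 47 of the large and 32 of the small subunit, 78 had lower loading, 98.7% against 13.9% of all genes, and 0 had higher loading. Their median was −1.23, against 0.02 over all genes, and they ran from −3.30 to −0.22. As a share of all counts they made up 7.80%, 8.85%, 7.09% and 7.21% of T in cultures 67, 83, 68 and 84, and 4.14%, 4.47%, 2.80% and 2.94% of P. Ribosomal protein genes have many processed pseudogenes, among which RSEM shares reads, so that single values are uncertain.

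RPS12, a small-subunit protein, was the lowest of them. It stood at 918, 1105, 883 and 852 CPM in T and at 114, 148, 70.8 and 67.5 CPM in P (cultures 67, 83, 68 and 84). Both HPP cultures were lower in P than both NPP cultures, and the 4 P values were far from T, 9.85 times lower (log2 −3.30, SE 0.17, edgeR adjusted p 2.81e-08). RPL12, which lies at the stalk base of the large subunit, gave 1056, 1271, 1012 and 1003 CPM in T. Its P values averaged 136 ± 39.8 CPM (SD, n = 4), from 102.1 in culture 84 to 180 in culture 83, again lowest in the HPP cultures and all below T (8.20 times lower, log2 −3.04, SE 0.15, edgeR adjusted p 2.81e-08). RPS6, the small-subunit protein that is phosphorylated downstream of mTOR, lay nearer the middle of the class. Its T values were 1315, 1525, 1179 and 1124 CPM and its P values 645, 717, 428 and 444 CPM, without overlap and 2.35 times lower (log2 −1.23, SE 0.14, edgeR adjusted p 2.24e-05).

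Other low members were RPS27 (log2 −2.72), RPL41 (−2.60), RPLP0 (−2.40) and RPS2 (−2.06). At the upper end stood RPL15 (−0.48) and RPS15 (−0.45, edgeR adjusted p 0.0264), whose P value of 378 CPM in culture 83 overlapped the T values of 363 to 517 CPM. FAU, a fusion of a ubiquitin-like protein with the small-subunit protein S30, was the member that did not pass. Its T values were 320, 445, 284 and 300 CPM and its P values 364, 329, 228 and 248 CPM, which overlap (log2 −0.22, SE 0.14, edgeR adjusted p 0.294).

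Of the 20 other TOP mRNAs, which encode elongation and initiation factors and associated proteins, 17 had lower loading (85.0% against 13.9% of all genes) and 0 higher, with a median of −0.67. EEF1A1, the elongation factor that delivers aminoacyl-tRNA, stood at 16392, 15679, 18191 and 17067 CPM in T and at 5557, 6357, 4595 and 4542 CPM in P. The groups did not overlap, and loading was 3.22 times lower (log2 −1.69, SE 0.11, edgeR adjusted p 1.29e-07). TPT1, the translationally controlled tumour protein, gave 1249, 1118, 1568 and 1449 CPM in T against 237.5, 254.7, 204.5 and 219.1 in P, which were narrowly spaced and 5.85 times lower (log2 −2.55, SE 0.13, edgeR adjusted p 2.81e-08). PABPC1, the poly(A)-binding protein, had a loading of −2.60 and EEF1G of −1.45. EEF2, the translocase, had −1.01, and its T values were spread, at 551 and 537 CPM in cultures 67 and 68 and 875 and 930 CPM in cultures 83 and 84. EIF3A (−0.14), EIF3G (0.03) and NPM1 (−0.19) were not called.

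Among selenoproteins, whose mRNAs recode a stop codon as selenocysteine, 7 of 11 had lower loading (63.6% against 13.9% of all genes) and 1 was higher (9.09% against 9.87%), with a median of −0.42. GPX4, the glutathione peroxidase that protects membranes from lipid peroxidation, stood at 151, 169, 176 and 175 CPM in T and at 30.6, 32.1, 31.2 and 33.7 CPM in P. The P values were almost identical in the 4 cultures and 5.26 times below T (log2 −2.40, SE 0.16, edgeR adjusted p 1.9e-07). SEPW1 (−2.58) and GPX1 (−1.51) were lower as well, and SEPHS2, which makes the selenium donor, was higher (0.40). In the polyamine pathway 4 of 8 mRNAs had lower loading (50.0% against 13.9%) and 1 was higher. The lower ones were ODC1 (−1.13), the rate-limiting decarboxylase, SRM (−0.78), AMD1 (−0.57) and the acetyltransferase SAT1 (−0.52, edgeR adjusted p 0.05, just under the threshold). The antizyme OAZ2 was higher (0.41). In this pathway 0 of 8 mRNAs were called for the difference with PP242 (median −0.11).

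The repressors of cap-dependent initiation also had lower loading. EIF4EBP2 stood at 83.5, 99.7, 87.7 and 101.1 CPM in T and at 26.2, 35.7, 29.3 and 28.9 in P, and EIF4EBP1 at 76.0, 83.5, 78.5 and 82.1 in T and at 41.3, 36.0, 24.1 and 35.5 in P. Neither gene overlapped, with loading of −1.63 (SE 0.16, edgeR adjusted p 8.21e-06) and −1.24 (SE 0.14, edgeR adjusted p 2.54e-05). Both were below 0 without PP242 as well, from −1.33 to −0.63 for EIF4EBP2 and from −1.10 to −0.15 for EIF4EBP1, and neither was called for the difference with PP242 (log2 −0.59 and −0.69, edgeR adjusted p 0.846 and 0.275). Of the 10 mRNAs of the cap-binding machinery 3 were lower (30% against 13.9% of all genes), the third being the helicase EIF4A2 (−0.41), and 2 were higher (20.0% against 9.87%), the cap-binding proteins EIF4E (0.36) and EIF4E2 (0.34). Of 8 mRNAs described as sensitive to the level of eIF4E, ODC1 and VEGFA were lower (25%) and 0 were higher. For the difference with PP242 0 of these 8 were called (median −0.04). MYC, on that list, stood at 225 to 282 CPM in T and 252 to 298 CPM in P, with a loading of 0.06 (edgeR adjusted p 0.709).

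C12orf75, a short reading frame of 267 bases, completed the 10 lowest genes with a mean of at least 10 CPM, at 139, 183, 189 and 212 CPM in T and 19.4, 28.5, 21.4 and 24.2 CPM in P (7.68 times lower, edgeR adjusted p 3.18e-06). RNAs classed as non-coding lay low too, and whether ribosomes engage them was not tested. In a fit over 16995 genes of all classes NEAT1, the nuclear scaffold of paraspeckles, stood at 835, 493, 333 and 375 CPM in T and at 161, 123, 58.0 and 95.0 in P, 4.54 times lower (log2 −2.18, SE 0.22, edgeR adjusted p 1.09e-05). MALAT1, also nuclear, was 2.58 times lower (log2 −1.37, edgeR adjusted p 0.00123). Without PP242 the loading of NEAT1 lay between −2.43 and −1.80 and that of MALAT1 between −1.83 and −1.37. GAS5, a non-coding snoRNA host with a TOP start, gave 344, 360, 270 and 264.5 CPM in T and 64.9, 105.9, 35.7 and 37.1 in P, 5.37 times lower. Its loading without PP242 was −1.22, −1.22, −0.96 and −1.18 in cultures 65, 81, 66 and 82. Of the 16 listed non-coding RNAs 15 were lower, and of 845 lincRNAs 225 were lower and 2 higher, with a median of −0.43. Over all 16995 genes of that fit 15.9% were lower and 10.7% higher. The library kit is not stated to mark strand, so overlapping and antisense genes cannot be told apart.

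On the higher side most differences were below 2-fold, and 10 called genes were at least 2-fold higher. SLX1B, a subunit of a structure-specific nuclease, had the highest loading among the named genes and reached the mean of 10 CPM required for naming through its P libraries only. It stood at 2.73, 2.42, 8.38 and 0.23 CPM in T and 36.9, 30.1, 27.6 and 30.1 CPM in P (log2 3.21, SE 0.65, edgeR adjusted p 0.0028). With single libraries left out its loading ran from 2.72 to 5.31, the latter without the T library of culture 68. It has a near-identical copy, SLX1A, so its counts are uncertain. H1FX, a linker histone, stood at 137, 174, 158 and 189 CPM in T and at 239, 329, 248 and 369 CPM in P. The groups did not overlap (log2 0.85, SE 0.14, edgeR adjusted p 0.000555). ENDOG, the mitochondrial endonuclease G, gave 9.95, 12.1, 14.6 and 13.5 CPM in T against 17.8, 22.2, 21.3 and 25.5 in P, without overlap (log2 0.80, SE 0.11, edgeR adjusted p 0.000184). SMG1, the kinase of nonsense-mediated decay, was 0.79 higher on the log2 scale, and its sequence is shared with pseudogenes.

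The remaining named genes depended on the culture. KMT2D and KMT2C, very large histone methyltransferases, had loading of 0.84 (edgeR adjusted p 0.0289) and 0.82 (0.0107). KMT2D stood at 16.2 and 16.2 CPM in T of cultures 67 and 68 and at 29.0 and 27.7 in T of cultures 83 and 84, against P values of 40.1, 53.0, 31.4 and 36.2. Its per-culture loading was thus 1.31 and 1.70 in cultures 67 and 68 and 0.12 and 0.39 in cultures 83 and 84. Cultures 67 and 68 are replicate 1 and cultures 83 and 84 replicate 2, so this split ran along the replicate number. POU2F1 (0.80), AHNAK (0.79) and SFT2D2 (0.77) were likewise highest in cultures 67 and 68, and P and T overlapped for AHNAK and SFT2D2. HIST2H2AA4 (0.83) has near-identical copies. The adjusted p of KMT2D, HIST2H2AA4, KMT2C, POU2F1, AHNAK and SFT2D2 passed 0.05 when single libraries were left out. It reached 0.129 for KMT2D, with a log2 value between 0.66 and 0.75, when the T or P library of culture 67 or 68 was missing. For KMT2C it rose to 0.0595 (log2 0.62) and 0.0665 (0.61) without the P library of culture 67 or 68. POU2F1 and SFT2D2 lost the call without the T library of either culture or the P library of culture 68 (log2 0.64 to 0.74 and 0.54 to 0.73). AHNAK lost it without those libraries or the P library of culture 83 (0.56 to 0.72). HIST2H2AA4 lost it without the T libraries of cultures 67, 68 and 84 or the P libraries of cultures 67, 83 and 84 (0.60 to 0.92).

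Proteasome subunits lay above the typical mRNA. Of 31 tested, 20 had higher loading (64.5% against 9.87% of all genes) and 0 lower, with a median of 0.39 and a range of 0.17 to 0.67. PSMB3, a subunit of the catalytic core, stood at 136, 187, 128 and 129 CPM in T and at 254, 251, 204 and 210 CPM in P. All P values were above all T values (log2 0.67, SE 0.14, edgeR adjusted p 0.00384), and PSMB6 (0.62) and PSMB1 (0.60) were similar. The count of subunits called depended on the scaling, the pairing and the libraries, with 31 under library size alone, 17 under upper-quartile factors, 14 with culture number as a block and 10 without the T library of NPP culture 67 or of HPP culture 84. The median loading of the list by culture was 0.49, 0.28, 0.35 and 0.48 with PP242 (67, 83, 68 and 84) and 0.77, 0.31, 0.78 and −0.01 without it (65, 81, 66 and 82). The difference with PP242 had a median of −0.03, and 0 subunits were called.

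**Figure D2:**
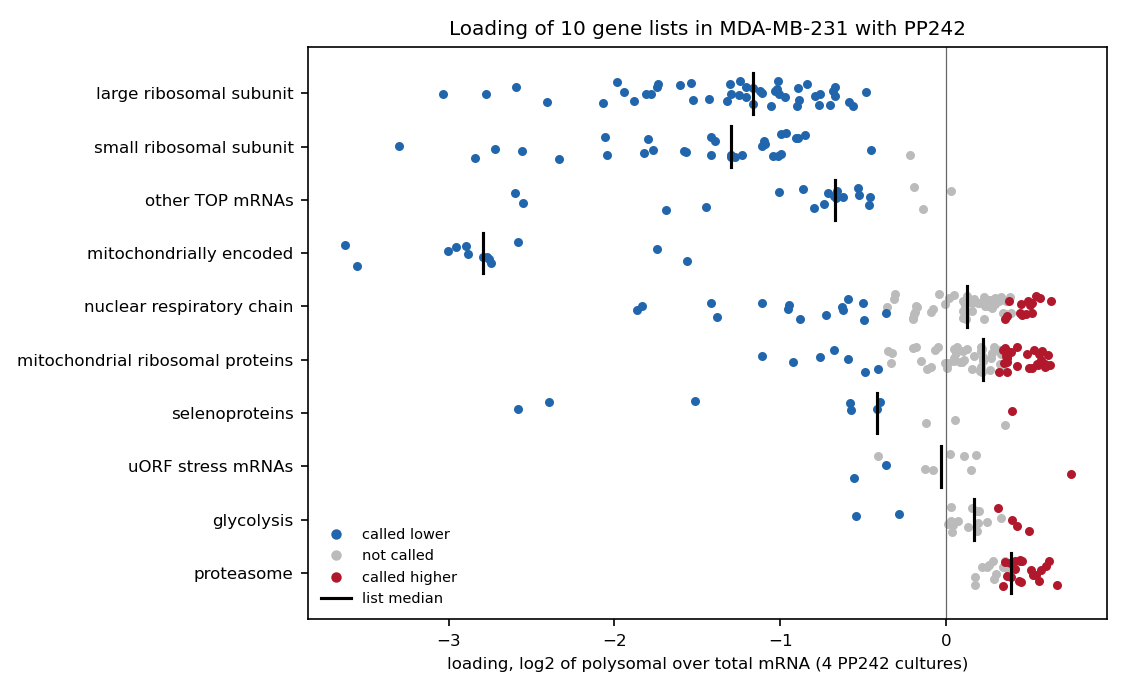
Loading under PP242 (log2 P over T, from the edgeR fit) of every tested member of 10 gene lists, 1 point per gene coloured by call, with a black bar at the median of each list. Mitochondrially encoded mRNAs lie lowest (median −2.79). All ribosomal proteins lie below 0 (−3.30 to −0.22, median −1.23) and all proteasome subunits above 0 (0.17 to 0.67).

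Nuclear genes for mitochondrial proteins held calls on both sides. Of 77 mitochondrial ribosomal proteins 27 were higher (35.1% against 9.87% of all genes) and 7 lower (9.09% against 13.9%), with a median of 0.22. Of 76 nuclear subunits of the respiratory chain 14 were higher (18.4%) and 15 lower (19.7%), with a median of 0.12. SDHC, a membrane anchor of complex II, stood at 109.4, 117.2, 105.3 and 108.4 CPM in T and at 152, 155, 152 and 161 in P, without overlap (log2 0.49, SE 0.09, edgeR adjusted p 0.00189). NDUFA8 (0.63) and NDUFB6 (0.57) of complex I and CYC1 (0.54) of complex III were also higher. UQCR11, the smallest subunit of complex III, gave 54.1, 63.0, 49.9 and 51.9 CPM in T and 15.9, 15.7, 13.2 and 15.3 in P (log2 −1.86, SE 0.15, edgeR adjusted p 8.37e-07), followed by ATP5E (−1.83) and UQCRQ (−1.42). The respiratory subunits called lower had short reading frames, with a median of 246 bases (153 to 471), against 816 bases for those called higher and 483 for those not called. For mitochondrial ribosomal proteins those called lower had a median of 501 bases and those not called 564.

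Coding length was therefore described over all genes, without a test, from the longest coding sequence of each gene in GENCODE v44 (13378 genes, 99.02%). Of 248 genes under 300 bases, 47.6% were lower and 0.806% higher, with a median loading of −0.54. From 300 bases to under 600, 29.0% were lower and 13.6% higher, and from 600 to under 1200, 14.4% were lower and 19.3% higher, with a median of 0.11. In the 2353 genes of 2400 to under 4800 bases 9.01% were lower and 0.85% higher. Without the ribosomal, other TOP and mitochondrially encoded mRNAs the shortest bin still held 45.1% lower genes and a median of −0.51. The rank correlation of loading with coding length over genes was −0.05, −0.07, 0.11 and −0.08 in cultures 67, 83, 68 and 84. Without PP242 it was −0.28, −0.02, −0.36 and 0.14 in cultures 65, 81, 66 and 82, so the cultures differed among themselves. Genes share their libraries, and these correlations describe single cultures. In the 701 genes of 4800 bases or more the culture medians were 0.09 and 0.21 in cultures 67 and 68 and −0.13 and −0.07 in cultures 83 and 84. The part of this length trend in the values of single genes was not tested beyond the length offset.

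**Figure D3:**
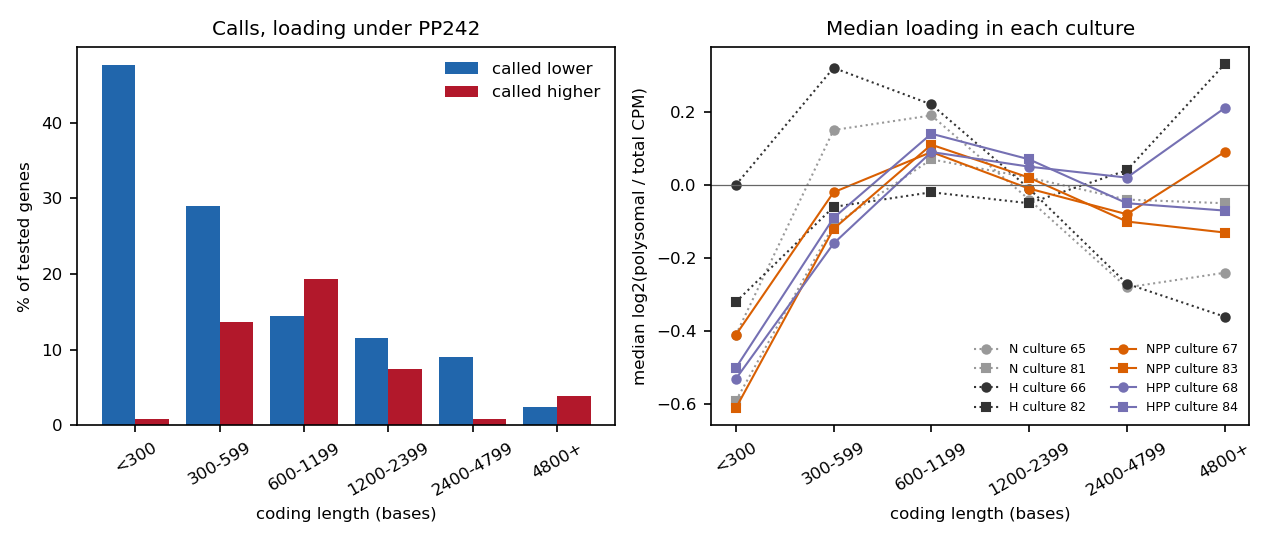
Left, percent of genes called higher or lower in loading under PP242 in 6 bins of coding length (bases), with the lower share falling from 47.6% in the shortest bin to 2.43% in the longest. Right, median loading (log2 P over T) per bin in each of the 8 cultures, where the cultures spread most in the longest bin (−0.36 to 0.33).

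Zinc-finger genes named ZNF, mostly transcription repressors, were a large list with lower calls. Of 452 tested members 131 were lower (29.0% against 13.9% of all genes) and 3 higher (0.664% against 9.87%), with a median of −0.22 against 0.02. The list was as low without PP242, with culture medians of −0.33, −0.36, −0.24 and −0.29 (65, 81, 66 and 82) beside −0.28, −0.27, −0.17 and −0.17 with it (67, 83, 68 and 84), and 1 member was called for the difference (median 0.09). In DNA replication 7 of 25 genes were higher (28% against 9.87% of all genes) and 0 lower, among them PCNA, the sliding clamp (log2 0.60, edgeR adjusted p 0.00425), TYMS (0.58), GINS3 (0.58) and CDC45 (0.54). Tubulins and actins had 4 of 12 higher (33.3%), led by TUBB2A (0.54). Among mitotic genes 4 of 17 were higher (23.5%), including the cyclin CCNB1 (0.43), and of 12 endoplasmic reticulum chaperones PDIA6 (0.51), PDIA3 and PDIA4 were (25%). Higher calls in 3 more lists were near or below the share of all genes, namely the chaperonin subunits CCT7 and CCT5 of 16 cytosolic chaperones (12.5%), IDI1 of 16 lipid synthesis genes (6.25%) and FSTL1 (0.51) of 21 matrix genes (4.76%), each list with 0 lower. Of 36 replication-dependent histones tested 4 were higher (11.1%), among them HIST1H1C (0.76), and 3 were lower (8.33%), also near the shares of all genes, but most histone mRNAs lack a poly(A) tail and their genes are near-identical.

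Stress and hypoxia lists held few calls, in both directions, beside 9.87% higher and 13.9% lower of all genes. Their shares were 10.0% and 20.0% for mRNAs with upstream reading frames, 13.6% and 9.09% for hypoxia targets, 20.0% and 10.0% for glycolysis, 4.35% and 17.4% for immediate early genes and 8.33% each for integrins. These lists have few members, and their shares were not tested against those of all genes. Among 10 mRNAs with upstream reading frames CEBPB, a bZIP transcription factor, was higher. It stood at 58.5, 60.4, 59.5 and 58.9 CPM in T and at 95.6, 117, 77.6 and 110 in P, with no overlap (log2 0.75, SE 0.14, edgeR adjusted p 0.00191). ATF4, the effector of the integrated stress response, was lower, at 708, 913, 739 and 766 CPM in T and 545, 673, 436 and 493 in P (log2 −0.55, SE 0.14, edgeR adjusted p 0.0119), as was PPP1R15B (−0.36). Of 22 hypoxia targets EGLN3 (0.49), EGLN1 (0.46) and NDRG1 (0.42) were higher, and MXI1 (−1.14) and VEGFA (−0.53) lower. Of 20 glycolytic genes TPI1 (0.50), PGK1 (0.43), SLC16A3 (0.40) and PGAM1 (0.31) were higher, and GAPDH (−0.54) and ENO2 (−0.29) lower. Among 23 immediate early genes ATF3 (0.63) was higher, and EGR1 (−1.44), ZFP36 (−0.90), JUND (−0.53) and ZFP36L1 (−0.39) were lower. Of 12 integrins ITGB5 (0.33) was higher and ITGAE (−1.35) lower. ITGB3, which is central to the study, had 2.24, 1.47, 3.10 and 3.49 CPM in T and 2.27, 1.84, 3.74 and 4.19 in P. The groups overlapped, although P lay above T within every culture, and loading was 0.21 (edgeR adjusted p 0.549). HIF1A (−0.13, edgeR adjusted p 0.527) and MTOR (−0.08, 0.811) were not called.

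The next comparison asked whether this pattern depended on oxygen. In normoxia with PP242, 131 genes had higher loading (0.970%) and 861 lower (6.37%), with 2 libraries a side. In hypoxia with PP242, 198 had higher (1.47%) and 939 lower (6.95%). Of the lower genes 662 were shared, 76.9% of the normoxic and 70.5% of the hypoxic list, and of the higher genes 96, or 73.3% and 48.5%. No gene was called in opposite directions. With library size alone the higher share of the calls was 57.3% in normoxia and 60.7% in hypoxia, against 13.2% and 17.4% under TMM. With the replicate number as a block 279 genes were called higher in normoxia and 391 in hypoxia. Each left-out library lowered the total counts, to between 254 and 543 in normoxia and between 354 and 683 in hypoxia, with the lowest values without the P libraries of cultures 67 and 68. Of these 5 to 54 were higher in normoxia (5 without the P library of culture 83) and 8 to 30 in hypoxia (8 without the P library of culture 68).

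The difference itself, loading in HPP minus loading in NPP, was called for 1 gene (0.00740% higher, 0% lower), and 83 genes had an unadjusted p under 0.05. That gene was SPANXA1, a cancer-testis antigen, which fell outside the rule for named genes for its low CPM and is named after its values were seen. It stood at 9.52 and 16.5 CPM in T of the NPP cultures and had a mean of 12.3 ± 2.97 CPM (SD, n = 4) in T of all PP242 cultures. In P it had 0.085 and 0.423 CPM in the NPP cultures but 11.3 and 15.5 in the HPP cultures, and 16.3 to 29.2 in P without PP242. The difference was 5.89 (SE 0.61, edgeR adjusted p 0.00132), with −5.68 in normoxia and 0.21 in hypoxia. SPANXA1 has near-identical copies in the SPANX family, so its counts are uncertain.

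Ribosomal protein mRNAs had a lower fitted loading in HPP than in NPP in 79 of 79 cases, as had 5871 of all 13510 genes, and 0 were called for the difference. Their median was −1.04 in normoxia, with 65 called lower (82.3% against 6.37% of all genes), and −1.42 in hypoxia, with 76 called lower (96.2% against 6.95%). With a limit of 1 on the size of the log2 change, 42 passed in normoxia and 66 in hypoxia. The normoxic count also fell when single libraries were left out, while the normoxic median ran from −1.14 to −0.92. The median of the differences was −0.37. By culture the medians were −0.98 and −1.09 in NPP and −1.50 and −1.34 in HPP, which did not overlap, while the other TOP mRNAs gave −0.59 and −0.53 against −0.78 and −0.75. For proteasome subunits the medians were 0.38 and 0.42.

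A further comparison set loading with PP242 against loading of the same line without it. The difference was negative for 0.822% of the genes and positive for 0% at an edgeR adjusted p under 0.05, and 528 genes had an unadjusted p under 0.05. With an adjusted p under 0.10 the counts were 128 and 1. The genes called by edgeR were 78 ribosomal proteins, 9 other TOP mRNAs and 24 genes in neither list. DESeq2 called 191 negative and 0 positive. This comparison and the first share the PP242 libraries.

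Without PP242 the ribosomal protein mRNAs were well loaded. Their median was 0.65 and 0.25 in N cultures 65 and 81 and 0.80 and −0.18 in H cultures 66 and 82, and 66 of 79 had a mean loading above 0, against 0 of 79 with PP242. In every one of the 79, all 4 PP242 cultures lay below all 4 others, which held for 371 of all tested genes (2.75%). The share of P counts taken by the class was 10.2%, 9.11%, 9.54% and 8.22% in cultures 65, 81, 66 and 82, above the 4.47% or less with PP242, while the T shares overlapped (6.62% to 8.71% without, 7.09% to 8.85% with). The difference had a median of −1.53 and ran from −2.21 to −0.90.

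H culture 82 stood apart from the other cultures in several lists. Without its T library 170 genes were called, and without both of its libraries, a setting added after the data were seen, 177 were, of which 175 were negative. The count of ribosomal proteins stayed at 78 in both settings, with a median of −1.72 and −1.79.

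RPS19 had the deepest difference among them. In P it stood at 1254, 1182, 1371 and 1028 CPM in cultures 65, 81, 66 and 82 and at 307, 326, 211 and 220 in cultures 67, 83, 68 and 84, while T lay between 736 and 1083 in all 8. The P values of the cultures with and without PP242 were far apart and the T values overlapped (difference −2.21, SE 0.19, edgeR adjusted p 2.86e-05). RPL39 and RPL13A (both −2.19), RPL12 and RPS27 (both −2.17) followed. RPL12 had a loading of −0.48, −1.26, −0.50 and −1.21 without PP242 and of −2.72, −2.82, −3.29 and −3.30 with it. It thus started below the typical mRNA, while RPS6 went from between −0.27 and 0.77 to between −1.46 and −1.03 (difference −1.59, edgeR adjusted p 0.0003). RPL41, whose reading frame is 75 bases long, was the member not called (−0.90, edgeR adjusted p 0.501). Its loading was low in both settings, −1.96 to −1.51 without and −2.92 to −2.09 with PP242.

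**Figure D4:**
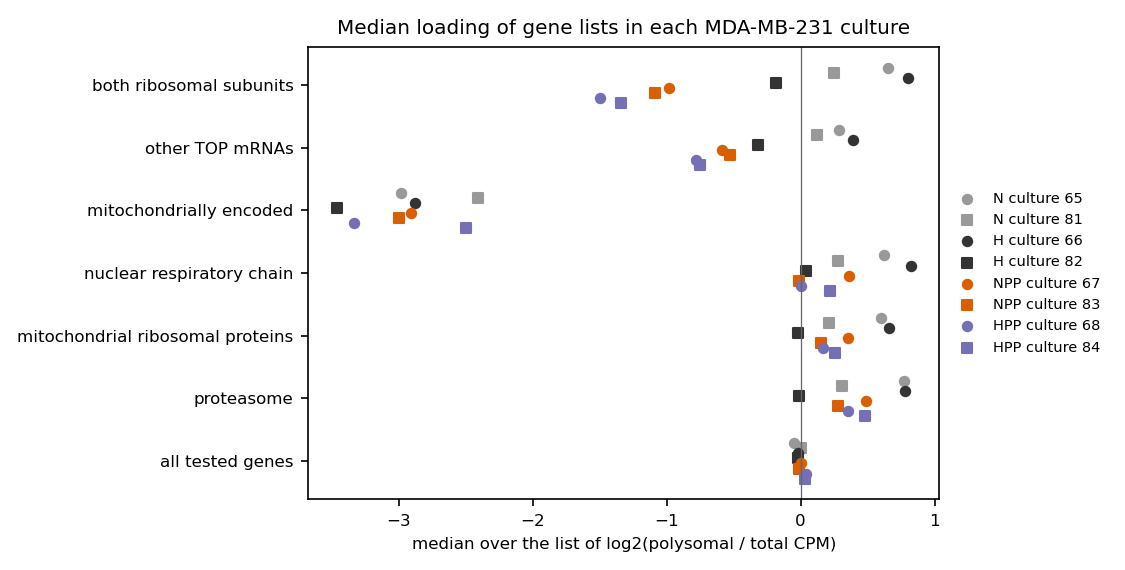
Median loading (log2 P over T) of 7 gene lists in each of the 8 MDA-MB-231 cultures, PP242 cultures beside those without it. Ribosomal proteins lie between −1.50 and −0.98 with PP242 and between −0.18 and 0.80 without, whereas mitochondrially encoded mRNAs overlap.

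Of the other TOP mRNAs TPT1 (difference −2.13), EEF1A1 (−1.65), EEF1G (−1.45), GNB2L1 (−1.18), EEF1B2 (−1.03) and HNRNPA1 (−0.78) were among the 9 called. EEF1A1 was evenly loaded without PP242, at 0.15, 0.04, 0.12 and −0.51, and at −1.56, −1.30, −1.99 and −1.91 with it. PABPC1 (−0.90, edgeR adjusted p 0.0977), EEF2 (−0.98, 0.194) and EIF4B (−0.59, 0.192) were not called.

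The 24 genes outside both lists included RPL22L1 (−1.70), a paralog of a ribosomal protein, the Y-box proteins YBX1 (−1.36) and YBX3 (−0.68), and the adenine nucleotide carriers SLC25A6 (−1.57) and SLC25A5 (−0.85). NME2 (−1.61), PFDN5 (−1.22), AHCY (−1.11), EIF3L (−0.84) and GLTSCR2 (−0.86) were among them too. GAPDH, often used as a constant reference, was −0.97 (edgeR adjusted p 0.00154). Of the 21 with a promoter entry 8 (38.1%) began with C and 4 pyrimidines. The share was 59 of 90 (65.6%) over all called genes and 7.34% over all tested genes with an entry. The readthrough gene NDUFC2-KCTD14 (−3.97) and FAM156B (−2.70) share sequence with other genes and are uncertain. SPANXA1 (−3.38) rested on its NPP cultures and reached a mean of 10 CPM over the 16 libraries through those without PP242.

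Mitochondrially encoded mRNAs (median difference 0.05, −0.13 to 0.25), mitochondrial ribosomal proteins (−0.12), proteasome subunits (−0.03), selenoproteins (−0.07), the cap-binding machinery (−0.09) and hypoxia targets (0.12) had 0 called genes, beside a median of 0.03 over all genes. The nuclear respiratory chain had a median of −0.27 and 1 called gene, ATP5G2 (−1.02). Of the 1334 genes with higher loading under PP242 1 was called for the difference, the readthrough gene NDUFC2-KCTD14. At the start of the gene, C and 4 pyrimidines were found in 36 of 1124 matched genes with higher loading (3.2%) and in 213 of 1520 with lower loading (14.0%), beside the 7.34% of all tested genes.

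**Figure D5:**
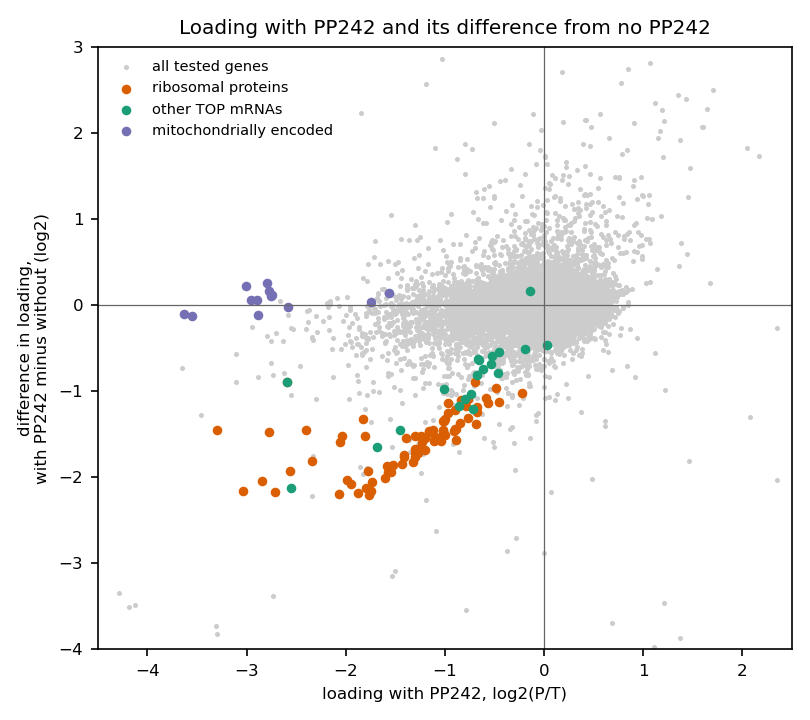
Loading under PP242 (x, log2 P over T) against the difference in loading with and without PP242 (y, log2), 1 point per gene, with ribosomal proteins, other TOP mRNAs and mitochondrially encoded mRNAs coloured; 13455 genes are drawn and 55 lie outside the axes. The axes share the PP242 libraries; mitochondrially encoded mRNAs sit low on x and near 0 on y (median 0.05), and ribosomal proteins are low on both (medians −1.23 and −1.53).

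The last comparison asked whether loading under PP242 differed between MDA-MB-231 and MCF10A, in a fit of 14298 genes over all 32 libraries. The counts of the lines were deposited in separate tables, so only differences within a line were compared. Per the study's methods only the medium of MCF10A held added EGF, insulin, hydrocortisone and cholera toxin, so line and medium cannot be told apart. Cultures without PP242 did not enter this comparison, so a line difference present without PP242 cannot be told from one in the response to it. Loading was higher in MDA-MB-231 for 4 genes (0.0280%) and lower for 3 (0.0210%), and 997 had an unadjusted p under 0.05. The count was 738 without the T library of MCF10A NPP replicate 1 and between 3 and 7 without any other library, and DESeq2 called 113. Most genes called without the T library of MCF10A NPP replicate 1 had lower loading in MDA-MB-231, unlike the split above. Of the 7 genes 2 had a mean of at least 10 CPM. TOMM20, a receptor of the outer mitochondrial membrane, stood at 240, 225, 235 and 214 CPM in T and 197, 235, 190 and 191 in P of MDA-MB-231 (67, 83, 68 and 84). In MCF10A it had 522, 464, 456 and 485 CPM in T and 222, 241, 215 and 144 in P (NPP cultures 39 and 43, HPP cultures 40 and 44). P fell clearly below T in MCF10A and overlapped it in MDA-MB-231, with a line difference of 1.07 (SE 0.18, edgeR adjusted p 0.0281). MTHFD2, a mitochondrial folate enzyme, had a loading of 0.03 in MDA-MB-231 and −0.65 in MCF10A in the fits of the single lines (difference in the fit of both lines 0.76, SE 0.14, edgeR adjusted p 0.0449). With culture number as a block, which pairs T and P, neither gene was called (edgeR adjusted p 0.248 for TOMM20 and 0.435 for MTHFD2).

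Ribosomal protein mRNAs were low in both lines, with 78 of 79 lower in MDA-MB-231 and 77 in MCF10A, against 13.9% and 5.45% of all genes tested in each. Their median was −1.23 in MDA-MB-231 and −2.44 in MCF10A, and the line difference was above 0 in 79 of 79 (median 1.22, 0.48 to 1.96) and in 6590 of the 12374 genes tested in both lines. None passed the edgeR test over all genes, while 62 had an unadjusted p under 0.05, as had 921 of the 12374 genes. DESeq2 called 36 of the 79, against 0.79% of all genes, and the fit with a length offset 35, against 0.608%. With single libraries left out the class median of the line difference ran from 0.74 to 1.47. It was lowest without the T library of MCF10A NPP replicate 2 and highest without that of replicate 1. Other TOP mRNAs had medians of −0.67 and −1.76. Mitochondrially encoded mRNAs (−2.79 and −2.72) and proteasome subunits (0.39 and 0.46) had nearly the same median in both lines, and 0 of them were called for the line difference. In MCF10A 3 of 31 proteasome subunits were called higher, against 3.06% of all genes tested there.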

How the data were processed

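Counts were available for 32 libraries of total and polysomal mRNA from MDA-MB-231 and MCF10A cells. The authors made poly(A) TruSeq libraries, aligned the reads with STAR and deposited RSEM expected counts per gene, without normalisation, which were rounded to whole numbers here. RSEM shares reads between similar genes, and a strand setting is not given in the sources used here. The study's methods name GRCh38 with GENCODE v24, while the submitters' processing notes list GRCh37. Each column was matched to its sample by barcode, and 0 columns were left over.

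In R 4.3.3, edgeR 4.0.16 (with limma 3.58.1) was run across all protein-coding genes of the 16 MDA-MB-231 libraries in 8 groups, after filterByExpr and TMM, with 8 residual degrees of freedom, a biological coefficient of variation of 0.150 and Benjamini-Hochberg adjustment. Contrasts were P against T with PP242, at each oxygen level, and the differences by oxygen, by PP242 and, over 32 libraries, by line. DESeq2 1.42.0 was an alternative. Other alternatives were scaling, filters, thresholds, replicate blocks, gene classes, thinning to the smallest library, a length offset (span 0.3), the libraries of the contrast alone and each library left out. Loading of single cultures used log2 CPM with a prior count of 2, pairing T and P by the number in the titles, which was taken to mark the culture. T and P of a culture deviated from their group means with r of 0.145, 0.00239, 0.348 and 0.107 over genes in N, H, NPP and HPP, so this check showed little pairing in H. Over all 28 pairs of groups matched by replicate number r ran from −0.187 to 0.348, and 19 pairs exceeded 0.1. The study's methods name no block, and the fit had none. Blocks by culture number and by replicate number were run as alternatives.

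Named genes were the 10 highest and 10 lowest called genes with a mean of at least 10 CPM and the same direction in all 4 cultures, the 6 at each end for the PP242 difference, 4 for oxygen and 3 for the line difference. Members and gene lists were chosen with earlier results of these data known, so list counts carry no test of their own. Start windows came from RefSeq promoters (GRCh38.p14) and coding lengths from GENCODE v44, matched by symbol or gene ID.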

Additional observations from a re-analysis of the deposited data

Results flagged for a closer look

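The median loading of 25 DNA replication genes in H culture 82, without PP242, was −0.09, while cultures 65, 81 and 66 lay between 0.15 and 0.17. The gap was large for a group of 4 by Dixon's test, which was applied to 84 groups and flags about 1 in 20 by chance. The same culture was also the lowest without PP242 in ribosomal proteins (−0.18) and proteasome subunits (−0.01). The PP242 difference without this culture is given with its other values.

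The line difference of TOMM20 (1.068, edgeR adjusted p 0.0281) and of MTHFD2 (0.7646, edgeR adjusted p 0.0449) passed the test of the difference between MDA-MB-231 and MCF10A. Over 29 alternatives both kept their direction, TOMM20 between 0.91 and 1.23 (adjusted p 6.78e-08 to 0.533) and MTHFD2 between 0.60 and 0.88 (adjusted p 0.0182 to 0.809), and the call was lost in 17 and in 24 of them.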

How the results depend on the processing

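Ribosomal protein mRNAs had 76 to 78 of 79 members called lower in loading under PP242 under each alternative run except the limit of 1 on the size of the log2 change, which 56 passed, and 75 to 79 were called in the difference between cultures with and without PP242. All 13 mitochondrially encoded mRNAs were called lower in loading under PP242 in each alternative.

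The count of genes in loading under PP242 (3206) was 575 under that limit and ran from 1967 to 2629 when each library was left out. In normoxia with PP242 the count (992) was 1684 with an adjusted p under 0.10, 446 under the limit of 1, 1513 with DESeq2, 1699 with library size alone, 1668 over all gene classes, 1655 with a length offset, and 254 to 543 with a library left out. In hypoxia with PP242 (1137) the same settings gave 1828, 536, 1637, 2027, 1720, 1806 and 354 to 683, and a fit to the libraries of the contrast alone gave 1956. A library left out leaves a side with 1 sample, assumed to vary like the other groups. The length offset brought the higher share of the calls to 50.4% under PP242, 40.1% in normoxia and 40.0% in hypoxia, and DESeq2 to 46.6%, 32.1% and 31.4%. The oxygen difference was called for 1 gene, or 2 without the T library of HPP replicate 1. A library left out means fewer samples and the limits are stricter or looser by construction. For the other changed counts the cause was not tested.

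For the difference with PP242, the percent of tested genes called (0.822) was 1.41 with DESeq2, 1.24 without both libraries of H culture 82, and 0.712 to 1.19 with a library left out. The line difference (7 genes) gave 113 with DESeq2, 87 with a length offset, 4 with library size alone (1 higher, against 4 of 7), 4 with no filter beyond 1 read, 2 from the libraries of the contrast alone, and 3 to 738 with a library left out. The fit of only the libraries of the contrast was not run for the difference with PP242, which needs all 16.

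Pairing T and P by culture, or libraries by replicate number, moved no total count by over 1.5 times, but a replicate block by replicate number moved the higher calls from 131 to 279 in normoxia and from 198 to 391 in hypoxia with PP242. With a replicate block by culture number the counts were 3481, 1150, 1279, 1 and 5 for loading under PP242, in normoxia, in hypoxia, for the oxygen difference and for the line difference, and 0.814% for the difference with PP242. A replicate block by replicate number gave 3821, 1418, 1552, 1, 10 and 0.947%. The block by culture number ended the calls of TOMM20 (adjusted p 0.248) and MTHFD2 (0.435) in the line difference, and neither block changed the call of another of the genes followed through the alternatives.

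Reversed values were those of MTOR, ITGB3 and 3 list medians, with MTOR and ITGB3 not called in the reported fit. MTOR turned to 0.04 (loading) and 0.14 (difference) with library size alone, its difference to 0.25 without both libraries of H culture 82, and with a library left out it ran from −0.20 to 0.06 and from −0.30 to 0.15. The ITGB3 difference was −0.01 with a length offset and −0.27 to 0.25 with a library left out. HIF1A, not called either, had a loading of −0.25 to 0 with a library left out, and this rounded 0 carries no sign. List medians of the difference turned to 0.02 for mitochondrial ribosomal proteins and 0.03 for polyamine genes with library size alone, and to 0.06 for histones with a length offset.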
